A study of Mus musculus with 3 samples.

Results

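Immediate early genes are switched on within minutes of a growth or stress signal, and their messages are short-lived. The 10 genes described here are Fos, Fosb, Fosl1, Fosl2, Jun, Junb, Jund, Atf3, Egr1 and Myc. They encode transcription factors grouped under this heading, although JunD is made steadily in resting cells. Their rows were taken by symbol from 41743 gene rows in all. Proteins of the Fos and Jun families pair through a leucine zipper to form AP-1. Atf3 can join such pairs, Egr1 binds DNA through zinc fingers, and Myc acts with its partner Max on genes of growth and metabolism. Fos itself is known as an oncogene of bone, since mice with excess Fos develop osteosarcoma.

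RNA bound to protein complexes was immunoprecipitated from the mouse osteosarcoma line K7M2 and sequenced (RIP-seq). For 2 libraries, called ezrin replicates 1 and 2, the antibody was against ezrin, and for 1 library it was nonspecific mouse IgG, which gives the background of the method. All cells were Ezrin -/- and stably transfected with Ezrin T567A, a form of this membrane and actin linker that cannot be phosphorylated at that threonine, so no library holds wild-type ezrin or the parent line. The labels give neither the clonal origin of the line nor whether separate cultures were used for the replicates. The p-values rest on the spread between the 2 ezrin libraries, pooled over genes and assumed for IgG, and this spread may be technical.

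The ezrin libraries held 19676595 and 16196329 gene counts, against 10124580 for IgG. Protein-coding genes held 97.5% and 98.1% of counts in the ezrin libraries against 74.7% in IgG. The genes Gm26917 and Gm42418, where reads of ribosomal RNA collect, held 0.122% and 0.198% in the ezrin libraries against 16.5% in IgG. Beyond a fit on protein-coding genes only, given at the end, the part of this difference in the results below was not tested. The labels name polyA RNA but describe depletion of ribosomal RNA, and which of these shaped the shares was not settled. Genes were called at an adjusted p under 0.05 in edgeR (quasi-likelihood, Benjamini-Hochberg). Of the 12478 genes tested, 36.4% were called, 19.0% (2377) higher and 17.4% (2171) lower in the ezrin libraries. With RPKM in limma the split was 3734 higher and 964 lower. The 13 osteoblast and mesenchymal markers summed to 12377 and 10015 CPM in the ezrin libraries and 4925 CPM in IgG (counts per 1000000, scaled by TMM factors). Most of these sums was Vim (7633 and 6107 CPM in the ezrin libraries, 2543 CPM in IgG) and Col1a2 (2934 and 2249 CPM, against 1185 CPM). Of the 13 markers, 9 were tested. Vim, Col1a2, Sparc and Spp1 were the 4 called higher, and Runx2 and Alpl were the 2 called lower. Col1a1, Pdgfrb and Cdh11 were not called. Alpl was rare, with 1.40 and 1.01 CPM in the ezrin libraries and 3.45 CPM in IgG. The osteoblast markers Ibsp, Bglap and Sp7 had at most 1 count in any library. Epithelial and erythroid markers, none of them tested, each summed to at most 0.894 CPM, while 6 endothelial markers summed to 2.19 and 1.67 CPM in the ezrin libraries and 2.82 CPM in IgG. The 10 macrophage markers summed to 992 and 902 CPM in the ezrin libraries and 1257 CPM in IgG, nearly all of it Csf1r, with none of the 3 tested called and Adgre1, Ptprc and C1qa at 0.

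Junb was the only one of the 10 genes called higher in the ezrin libraries, and Jund, Fosl2 and Fosb were called lower. Junb was 2.13-fold higher, while Jund was 2.43-fold and Fosb 14.7-fold lower, and Fosl2 differed by −0.68 on the log2 scale. Thus 4 of 8 tested members were called, against the 36.4% of all genes. Jun, Fosl1, Myc and Fos were not called, and Atf3 and Egr1 had too few counts to test. The 8 tested members had a median log2 fold of 0.078, against −0.020 over all genes tested. Values here are shares of what each antibody recovered from bulk material, and with no input library they do not give RNA levels in the cells.

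Factors of the AP-1 and CREB families are known to act on promoters of immediate early genes, so the members' own promoters were read for the letters these factors bind. Windows of 250 bases before to 50 after the RefSeq start (GRCm38.p6) were searched for 7 members. Fosl1, Egr1 and Myc were not searched. Of the 7 windows, 3 held a match, each shown here with its flanks. Searched on both strands were TGANTCA, TGACNTCA and TGACGT, where N is any base. TGACNTCA and TGACGT can overlap, since TGACNTCA with G at N holds TGACGT. Capitals mark the match and the sequence runs 5′ to 3′ on the gene's strand.
Jun (chr4:95052251-95052278, minus strand): aagcctcggggTGACATCAtgggctatt
Fos (chr12:85473813-85473838, plus strand): gttccgcccagTGACGTaggaagtcc
Atf3 (chr1:191183327-191183352, minus strand): ttaatagcattACGTCAgcctgggat
The Jun match starts 45 bases before the annotated start, the Fos match 66 bases and the Atf3 match 8 bases before it. In Atf3 the match lies on the opposite strand and so reads ACGTCA. The windows of Fosb, Fosl2, Junb and Jund held none of these letters. Of all 32851 windows, 21.0% held at least 1 of the 3 motifs.

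The genes lie on separate chromosomes except for Junb and Jund, both on chromosome 8 (GRCm38.p6, 84976909 to 84978748 and 70697739 to 70700616). Jun is on chromosome 4 (95049036 to 95052222), Fosb on chromosome 7 (19302696 to 19310118), Fosl2 on chromosome 5 (32136472 to 32157840), Fosl1 on chromosome 19 (5447698 to 5455938) and Myc on chromosome 15 (61985341 to 61990361). Ccdc85b is the one RefSeq gene that overlaps a member, Fosl1, and it had 2630 and 1637 counts in the ezrin libraries and 1435 in IgG. The sources used here do not say whether counting used strand, so reads in that overlap cannot be told apart. The gene length behind RPKM, recovered from count over RPKM and an estimated read total, was 2301 bases for Junb and 1668 bases for Jund. Their RefSeq spans were 1840 and 2878 bases, so RPKM used a longer length for Junb and a shorter one for Jund. A longer length lowers RPKM and a shorter one raises it, and the part of this in the levels below was not tested.

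Per length, Fosl1 was the most abundant of these messages in every library. RPKM divides the count by gene length and a read total of the library, and it allows levels to be set against each other between genes. In these data that read total, which was estimated, exceeded the gene counts in every library. In the ezrin libraries Fosl1 averaged 102 ± 32.1 RPKM (SD, n = 2), Jun 85.4 ± 16.7, Junb 84.2 ± 12.8 and Myc 77.9 ± 15.7. All 4 were higher in ezrin replicate 1, so these SDs hold a difference between libraries that the genes share. Within each ezrin library Fosl1 was the highest of the 4 and Myc the lowest, which was not tested. Jund at 30.5 ± 4.26 and Fosl2 at 29.2 ± 1.76 RPKM formed the next step, and their order turned between the ezrin libraries. In IgG the order was Fosl1 at 72.4 RPKM, Jund at 56.7, Myc at 53.5, Jun at 48.2, Fosl2 at 35.6 and Junb at 30.2. By mean level Jund thus had rank 5 in the ezrin libraries and rank 2 in IgG, and Junb had rank 3 in the ezrin libraries and rank 6 in IgG. These ranks rest on the lengths behind RPKM, which for Junb and Jund differ from their RefSeq spans. Fos and Fosb were below 2 RPKM everywhere. The 6 abundant genes held 99.9% and 99.9% of the set's counts in the ezrin libraries and 99.2% in IgG.

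**Figure D1:**
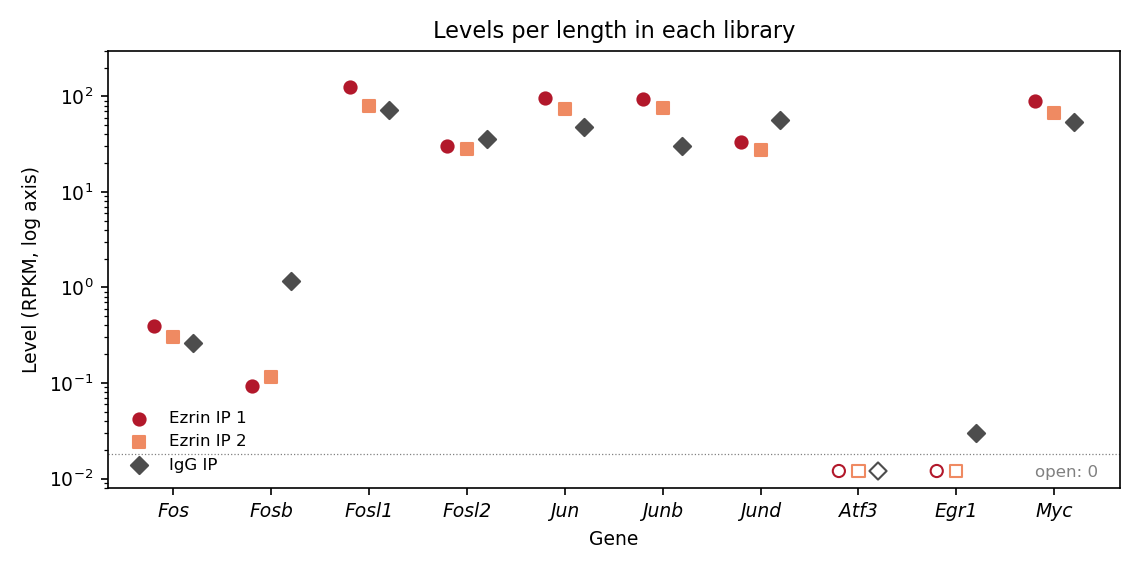
Level of each gene in RPKM on a log axis, with 1 point per library (ezrin replicates 1 and 2, then IgG) and open points for a value of 0. Junb lies higher and Jund lower in both ezrin libraries than in IgG, Fosb reaches 1.17 RPKM in IgG alone, and Atf3 is at 0 in all libraries.

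Junb and Jund, members of the Jun family that pair with Fos proteins in the same way, differed from IgG in opposite directions. JunB is often induced early and can restrain c-Jun, whereas JunD is made steadily in resting cells. Junb had 256 and 201 CPM in ezrin replicates 1 and 2 and 107 CPM in IgG, from 5133, 3367 and 1025 counts. Both ezrin libraries were above IgG. The log2 fold was 1.09 ± 0.25 (SE of the fit, adjusted p = 8.99e-05). Jund had 66.6 and 53.2 CPM in the ezrin libraries and 146 CPM in IgG, from 1337, 893 and 1395 counts. Here both ezrin libraries were below IgG, and the log2 fold was −1.28 ± 0.23 (adjusted p = 6.87e-07). Junb and Jund kept their direction and their call under all 9 other settings that give a test.

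Jun, the founding member of the family and a target of the JNK kinases, lay between these. It had 370 and 273 CPM in the ezrin libraries and 237 CPM in IgG. Both ezrin libraries were above IgG, but the difference was not called (log2 fold 0.44 ± 0.23, adjusted p = 0.125). It passed with library size as the only scaling (adjusted p = 0.0459) and with RPKM in limma (adjusted p = 0.0247), and its log2 fold was 0.072 after cyclic loess, a normalization that removes a trend with level.

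The ratio of one message to another within a library does not depend on the scaling between libraries. Junb over Jund was 3.84 and 3.77 by counts in the ezrin libraries and 0.735 in IgG. On the log2 scale this ratio was 1.93 ± 0.018 (SD, n = 2) in the ezrin libraries and −0.44 in IgG, a 5.18-fold difference between the ratios. Jun over Jund was 5.55 and 5.12 in the ezrin libraries and 1.63 in IgG. Of Jun family counts, Jund accordingly made up 9.63% (95% exact binomial interval 9.14 to 10.1) and 10.1% (9.49 to 10.8) in the ezrin libraries, against 29.8% (28.5 to 31.1) in IgG. Junb made up 37.0% (36.2 to 37.8) and 38.1% (37.1 to 39.1), against 21.9% (20.7 to 23.1). These intervals cover counting error only. By RPKM, which divides by gene length, Jund made up 15.0% and 15.6% in the ezrin libraries, against 42.0% in IgG. Shares by RPKM rest on the lengths behind it, which for Junb and Jund differ from their RefSeq spans. With 2 libraries against 1, an exact one-sided permutation test cannot go below p = 0.333, so the ratios are given without a test.

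**Figure D2:**
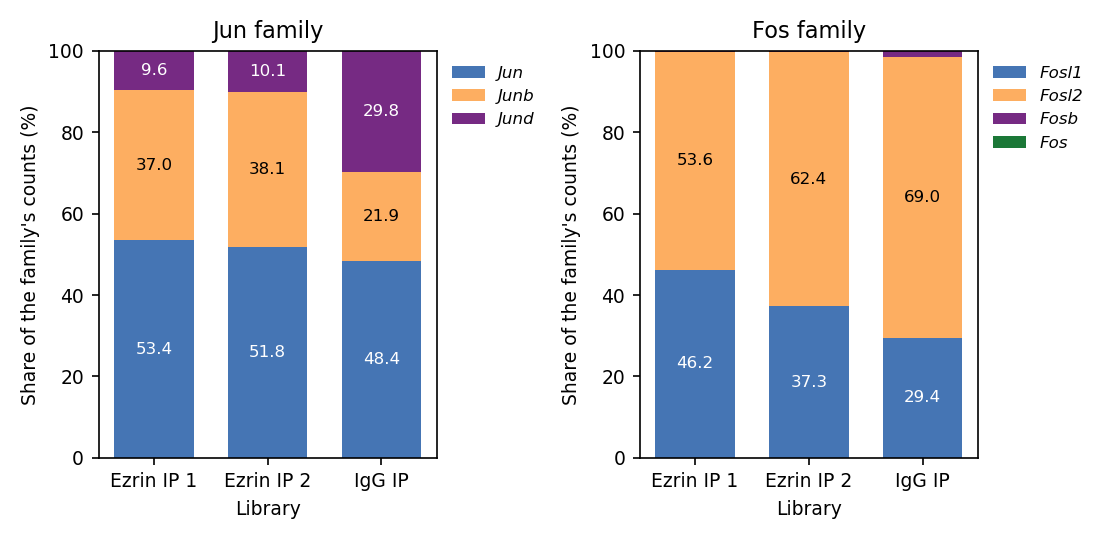
Share of each gene in the counts of the Jun family (left panel) and of the Fos family (right panel), in percent, as stacked bars for ezrin replicates 1 and 2 and IgG. Jund takes 9.63% and 10.1% of Jun family counts in the ezrin libraries and 29.8% in IgG, and Fosl1 takes 46.2% and 37.3% of Fos family counts against 29.4%.

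The Fos family was carried almost wholly by Fosl1 and Fosl2, which encode Fra-1 and Fra-2, members that lack the strong activation domains of Fos. Fosl2 had 351 and 314 CPM in the ezrin libraries and 532 CPM in IgG. Both ezrin libraries were below IgG, and the log2 fold was −0.68 ± 0.22 (adjusted p = 0.0076). With RPKM in limma it was not called (log2 fold −0.28, adjusted p = 0.293). Fosl1 had 302 and 187 CPM in the ezrin libraries and 227 CPM in IgG, so that the IgG value lay between the ezrin libraries, and it was not called (log2 fold 0.11 ± 0.23, adjusted p = 0.738). Its sign turned with the library, at 0.41 for ezrin replicate 1 and −0.27 for ezrin replicate 2 (log2 ratio to the same IgG library with 1 CPM added), and after cyclic loess (−0.21). Fosl1 over Fosl2 was 0.862 and 0.597 by counts in the ezrin libraries and 0.426 in IgG. Per length, by RPKM, the same ratio was 4.10 and 2.84 in the ezrin libraries and 2.03 in IgG.

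Fosb and Fos, the members with strong activation domains, were rare. Fosb had 14 and 14 counts in the ezrin libraries and 108 in IgG, or 0.698 and 0.835 CPM and 11.3 CPM. Both ezrin libraries were far below IgG (log2 fold −3.87 ± 0.45, adjusted p = 6.84e-16). On log2(RPKM + 1) the difference was −0.98 (limma adjusted p = 0.00025), since the added 1 exceeds the levels in the ezrin libraries. Single ezrin libraries gave −2.86 and −2.74 with 1 CPM added and −3.61 and −3.41 with 0.25 CPM added. Of Fos family counts, Fosb made up 0.107% (0.0583 to 0.179) and 0.166% (0.0908 to 0.278) in the ezrin libraries, against 1.46% (1.20 to 1.77) in IgG. Fos had 22 and 14 counts in the ezrin libraries and 9 in IgG, and its log2 fold was 0.044 ± 0.81 (adjusted p = 0.973), so a difference of 1 log2 unit was not detectable at this depth.

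Myc, Egr1 and Atf3 stand outside the Fos and Jun families. Myc had 288 and 211 CPM in the ezrin libraries and 224 CPM in IgG. The IgG value lay between the ezrin libraries and Myc was not called (log2 fold 0.16 ± 0.23, adjusted p = 0.63). Its sign turned to −0.17 after cyclic loess and to −0.087 with ezrin replicate 2 alone. Egr1, which serum and shear stress induce strongly, had 0 counts in both ezrin libraries and 2 in IgG. Atf3, a stress-induced repressor, had 0 counts in all libraries. A count of 0 allows up to 0.152 and 0.185 CPM in ezrin replicates 1 and 2 and 0.296 CPM in IgG (3 counts per library), and no fold is given for either gene.

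**Figure D3:**
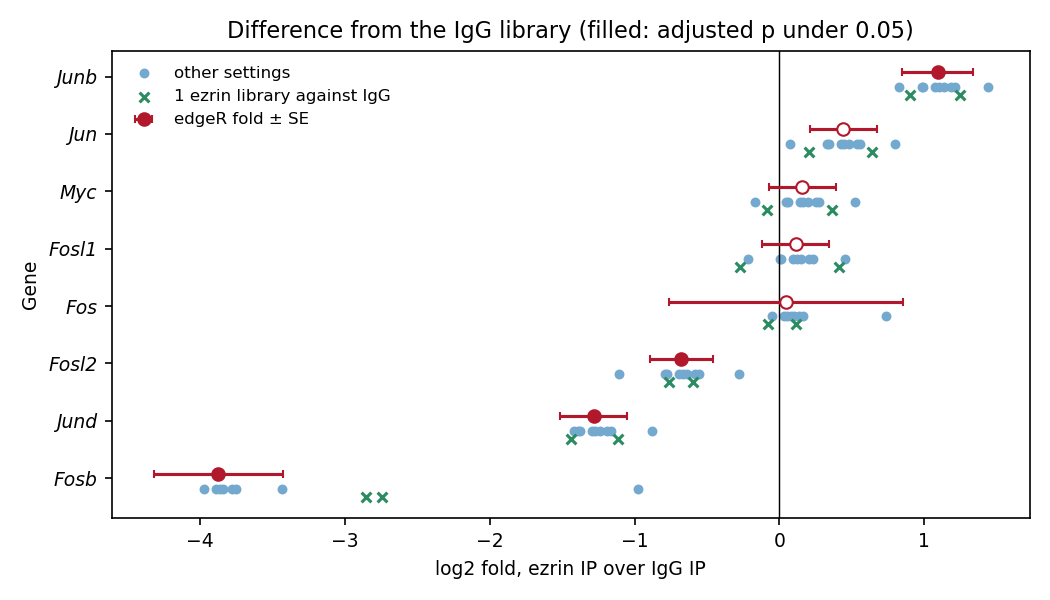
log2 fold of ezrin over IgG for the 8 genes tested, as the edgeR estimate with its SE (filled where adjusted p is under 0.05), the estimates under other settings (small points) and the ratio of each single ezrin library to IgG with 1 CPM added (crosses). Junb stays above 0 and Fosl2, Jund and Fosb below 0 throughout, while Fosl1, Myc and Fos have values on both sides of 0.

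Among the 8 tested members, 2 had both ezrin libraries above IgG and 3 had both below, and for the other 3 IgG lay between them. Over all genes tested these shares were 42.6% above and 44.3% below. Abundant genes leaned upward in these data. Of 2253 genes averaging 100 CPM or more, 38.5% were called higher and 14.8% lower, with a median log2 fold of 0.30. That average holds 2 ezrin libraries and 1 IgG library, so a gene high in ezrin reaches it more easily. The lean thus follows in part from the cut. The 5 members at that level were Fosl1, Fosl2, Jun, Junb and Myc, of which 1 was called higher, 1 lower and 3 not at all. In the ranking of all log2 folds, Junb stood at percentile 90.3, Fosl2 at 21.4, Jund at 8.66 and Fosb at 1.15.

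The ezrin libraries also differed from each other at these genes. All 6 members above 10 CPM had more CPM in ezrin replicate 1 than in ezrin replicate 2, by 1.12-fold (Fosl2) to 1.61-fold (Fosl1), with a median of 1.31-fold. Of the 6, 5 reached 1.25-fold, a level chosen after the values were seen. Among all 8604 genes averaging 10 CPM or more, 14.1% reached 1.25-fold and the median ratio was 0.996. Of 36 other immediate early genes at that level, 12 reached it, with a median of 1.10. The part of culture, lysis or library preparation in this was not tested.

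**Figure D4:**
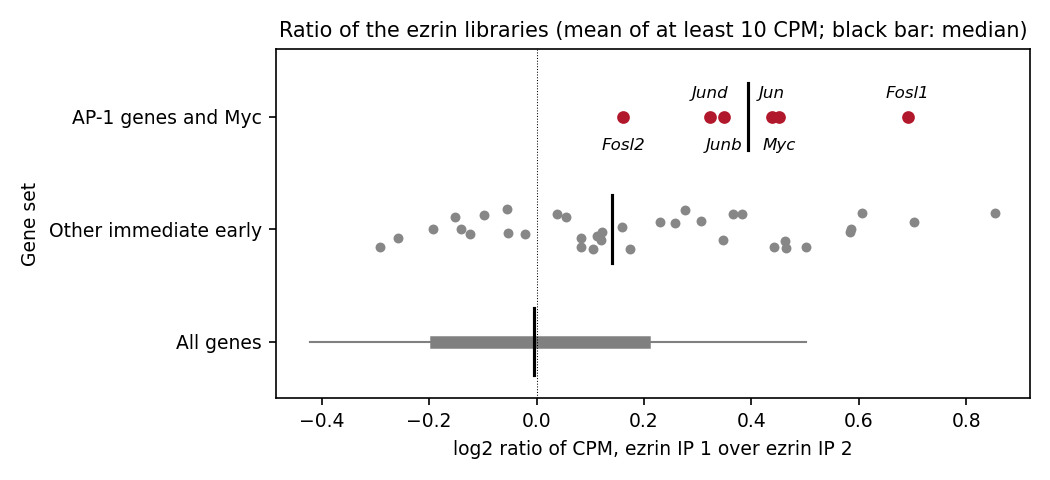
log2 ratio of CPM, ezrin replicate 1 over ezrin replicate 2, for the 6 abundant members (named points), for 36 other immediate early genes (grey points) and for all genes averaging 10 CPM or more (thick line, 25th to 75th percentile, thin line, 5th to 95th percentile); black bars are medians. The 6 named genes all lie to the right of 0.

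Genes with the profile nearest to Junb and to Fosb were found by Euclidean distance of log2(CPM + 1) over the 3 libraries. For Junb they were Prkcsh, a subunit of glucosidase II (distance 0.15, log2 fold 1.07), Gtf3c1, a subunit of the polymerase III factor TFIIIC (distance 0.15), and Asns, asparagine synthetase (0.16, 1.11). For Fosb they were Plppr3, a phospholipid phosphatase relative with 15 and 15 counts in the ezrin libraries and 125 in IgG (distance 0.20), 6720427I07Rik (0.29) and the histone methyltransferase Nsd1 (0.40).

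Other immediate early genes went both ways, as the members did. Of 43 tested, 7 were higher, 6 lower and 30 not called, with a median log2 fold of −0.0024. This median was 0.26 with RPKM in limma and −0.099 with upper-quartile factors. The median over all genes moved as well, to 0.22 and −0.12 under these settings. Over the 7 lists described from here on, the share of tested genes called ran between 30.2% and 62.5%, against 36.4% of all genes. The stress response genes Gadd45b (1.36) and Gadd45g (1.21) had the highest called folds. Gadd45b had 31.2 and 28.9 CPM in the ezrin libraries and 11.7 CPM in IgG. Plk2, a polo-like kinase and among the most abundant of the list, was higher (0.86), and Ccn1, a secreted matrix protein and the most abundant of all, was not called (0.12). The lowest called were Egr3 (−2.54), a relative of Egr1, and the HLH inhibitor Id2 (−1.17). Egr3 was rare, with 5 and 4 counts in the ezrin libraries and 14 in IgG. It passed the filter on low counts only through IgG, where it was high, so its call as lower follows in part from the filter.

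A list of basic leucine zipper genes, most of whose products can partner AP-1 proteins, also went both ways. The list holds Cebpz, which is named after this family but is a nucleolar protein and not a basic leucine zipper factor. Of 30 tested, Cebpz included, 4 were higher, 6 lower and 20 not called, with a median of −0.24. With RPKM in limma this median was 0.14, below the 0.22 of all genes under that setting. Cebpz (1.41) and Nfe2l2, the antioxidant regulator NRF2 (1.18), were highest, and Atf7 (−1.61) and Hlf (−1.59) were lowest. Atf7 had 48.4 and 45.3 CPM in the ezrin libraries and 143 CPM in IgG. Both ezrin libraries were thus below IgG, as for 44.3% of all genes tested. The most abundant, Atf4 (0.14) and Nfe2l1 (−0.33), were not called.

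Kinases, factors and cofactors that act on immediate early genes or their proteins included 5 higher, 10 lower and 21 not called of 36 tested. Among them were ubiquitin ligase genes for decay of these proteins (Fbxw7, Cop1 and Itch). The median was −0.24. With RPKM in limma it was 0.05, below the 0.22 of all genes under that setting. The SRF coactivator Mrtfa (0.93) and Cops5 (0.90), known also as the Jun coactivator Jab1, were the highest called. Mrtfa had 226 and 147 CPM in the ezrin libraries and 97.7 CPM in IgG. Elk1 (−1.43), which with SRF activates Fos, and Fbxw7 (−1.33), a ubiquitin ligase subunit that marks Jun and Myc for decay, were the lowest. Rps6ka4, a kinase of the MSK type (0.32), and Map2k2 (−0.017) were the most abundant and were not called.

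Genes of the Myc network split almost evenly, with 7 higher, 8 lower and 9 not called of 24 tested and a median of −0.063. The median was 0.22 with RPKM in limma, 0.069 with ezrin replicate 1 alone and −0.25 after cyclic loess, so it has no settled sign. Over all genes the median was 0.22 with RPKM in limma and −0.012 after cyclic loess. Ruvbl2 (1.76) and Ruvbl1 (1.62), ATPases of chromatin complexes that Myc recruits, were highest. Ruvbl2 had 494 and 475 CPM in the ezrin libraries and 143 CPM in IgG. Fbxw7 was lowest here too, followed by Mxi1 (−0.99), which competes with Myc for Max. Huwe1, a ubiquitin ligase of Myc, was abundant and not called (0.18).

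Known targets of Myc had 16 higher, 2 lower and 12 not called of 30 and a median of 0.58. The median was −0.020 over all genes tested and 0.30 over genes of at least 100 CPM, a level that some of the targets did not reach. Called higher were 19.0% of all genes tested and 38.5% of genes of at least 100 CPM. Mcm7 (1.97), of the replicative helicase, and Mybbp1a (1.89), a nucleolar protein, were highest. Lactate dehydrogenase Ldha (1.55) and nucleophosmin Npm1 (0.71) were the most abundant and were higher as well. E2f1 (−1.75) and Ccnd2 (−0.68) were the lower ones. After cyclic loess the median was 0.25, against −0.012 over all genes.

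Known targets of AP-1 included 9 higher, 3 lower and 9 not called of 21 tested, with a median of 0.13. The median was 0.48 with ezrin replicate 1 alone and 0.45 with RPKM in limma, where that of all genes was 0.22. Ezr itself is among the 9 higher (1.18), in cells whose own gene was knocked out and which carry transfected ezrin, and counts of the knocked-out gene and the transfected form cannot be told apart. The matrix proteases Mmp3 (2.30) and Mmp9 (1.82) were the highest called. Mmp9 had 212 and 150 CPM in the ezrin libraries and 51.2 CPM in IgG. The hyaluronan receptor Cd44 (−1.12) and the cell death gene Bcl2l11 (−1.02) were lowest. Integrin Itgb1 (0.94) was higher, and cyclin Ccnd1, the most abundant, was not called (0.062).

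Proteins that bind or degrade short-lived messages were coded by genes that also went both ways, with 7 higher, 9 lower and 12 not called of 28 tested and a median of −0.033. The median was 0.26 with RPKM in limma, 0.088 with library size only and −0.26 after cyclic loess, so its sign is not settled. Over all genes the median under these settings was 0.22, 0.10 and −0.012. The exosome nuclease Exosc10 (1.41) and Hnrnpd, the AU-rich element binder AUF1 (1.24), were highest. Igf2bp2 (−2.31) and Rc3h2 (−2.04), a relative of Roquin, were lowest. Rc3h2 had 29.2 and 37.9 CPM in the ezrin libraries and 138 CPM in IgG. Khsrp, which directs AU-rich messages to decay, was not called (0.30).

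**Figure D5:**
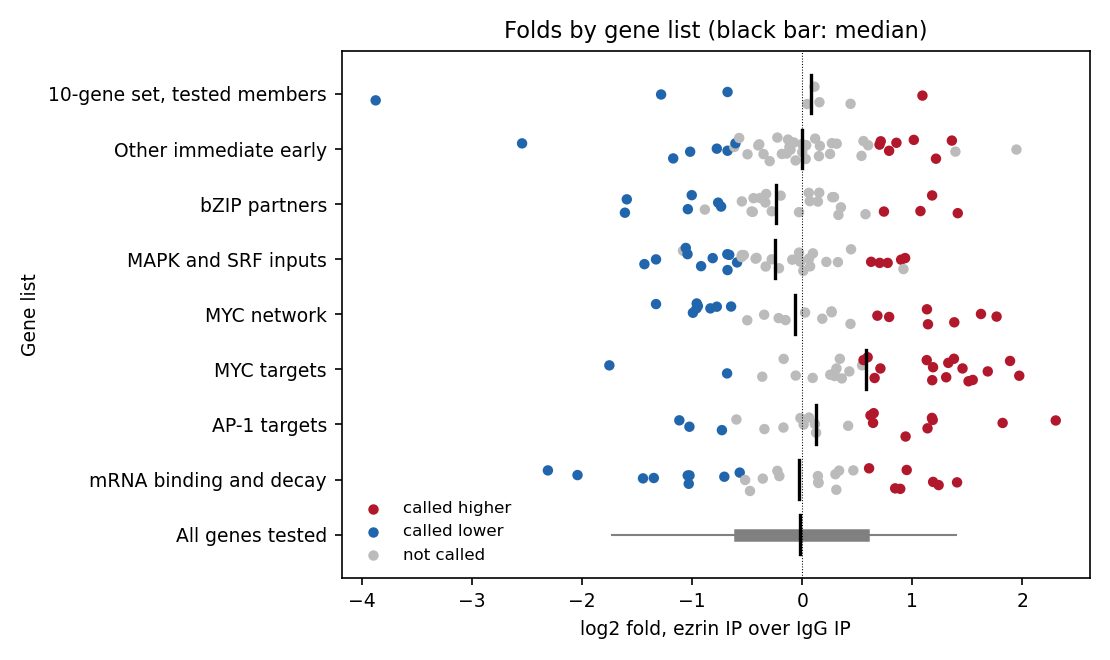
log2 fold of ezrin over IgG for each tested gene of the 10-gene set and of the gene lists, coloured by call, with the median as a black bar; for all genes tested the thick line spans the 25th to 75th percentile and the thin line the 5th to 95th. Medians lie between −0.24 (bZIP partners, MAPK and SRF inputs) and 0.58 (MYC targets).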

How the data were processed

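The deposited files give raw counts and RPKM for every gene symbol and library, per the file headers. The genome build was GRCm38, per the submitters' processing notes, while aligner, counter, annotation and use of strand were not given in the sources used here. Counts were tested with edgeR 4.0.16 in R 4.3.3 (TMM, filterByExpr by group, quasi-likelihood test, Benjamini-Hochberg adjustment over all 12478 genes). Only 1 residual degree of freedom was left per gene, the prior degrees of freedom were infinite, and IgG, with 1 library, was taken to vary as the ezrin libraries do. SE is the size of the log2 fold over the square root of F. The fit was also run on simulated data, in which IgG was made to vary as the ezrin libraries do, so that run cannot test this assumption. Total depth was 10124580 to 19676595 counts, and intervals cover counting error only. The members and the 7 gene lists were chosen with earlier results of these data known. Named list genes are the 2 highest and 2 lowest called and the 2 most abundant of each list. Not every gene this rule names is reported here. Other settings were library size only, median-of-ratios and upper-quartile factors, protein-coding genes only, cyclic loess, no filter, a mean of at least 10 CPM, DESeq2 1.42.0, limma 3.58.1 on log2(RPKM + 1), each ezrin library alone, 0.25 in place of 1 CPM added to single-library ratios, and family shares by RPKM. Ddit3 was not analysed here. Promoter sequences are from RefSeq.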

Additional observations from a re-analysis of the deposited data

How the results depend on the processing

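Junb, Jund and Fosb kept their calls under every setting run that tests them, and these 3, Fosl2 and Jun kept their direction under every setting, while Fosb and Fos were not tested at a mean of 10 CPM or more. Fosl2 lost its call with RPKM in limma (−0.28). With protein-coding genes only, 1 member was called higher and 3 lower. The log2 folds there were 1.08 for Junb, −1.30 for Jund, −0.69 for Fosl2 and −3.89 for Fosb. The count of members called higher was 2 with library size only and 2 with RPKM in limma, in both cases Junb and Jun. Over all genes, RPKM in limma called 3734 higher and 964 lower, and DESeq2 called 1019 lower. Over the 7 gene lists together, 41 genes were lower in edgeR, 26 with DESeq2 and 15 with RPKM in limma. The read totals behind RPKM were estimated from 49, 39 and 46 small RNA genes, taking their RefSeq lengths as the lengths used. These estimates were larger than the gene counts. In units of 1000000 reads they were 23.9, 19.5 and 14.7 for ezrin replicates 1 and 2 and IgG. The gene counts were 19676595, 16196329 and 10124580. Relative to its gene counts, IgG thus had the largest estimated read total, which lowers its RPKM the most. The part of this in the calls and signs with RPKM was not tested, and neither was the cause of the lower count with DESeq2. Signs that turned were those of genes not called: Fos with upper-quartile factors (−0.052), and after cyclic loess Fosl1 (−0.21) and Myc (−0.17). With ezrin replicate 2 alone these 3 were also below 0 (Fos −0.081, Fosl1 −0.27, Myc −0.087). Against a median log2 fold over all genes of −0.020, library size only gave 0.10 and log2(RPKM + 1) gave 0.22, and the log2 fold of Jun was 0.56 and 0.80 under these settings. RPKM divides by length and so moves the shares within a family (Fosl1 in IgG 66.1% of the Fos family against 29.4% by counts). The ezrin libraries alone have no residual degrees of freedom and give values without a test. No paired analysis was possible because ezrin and IgG share only replicate number 1. Depth limits what can be said of Fos, Egr1 and Atf3.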
